A study of Mus musculus with 2 samples.

Results

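Amino acid transporters bring the building blocks and fuel that T cells need when they are activated. The 10 genes described here were chosen by name, as amino acid transporters of activated T cells: Slc1a4, Slc1a5, Slc3a2, Slc7a1, Slc7a5, Slc7a6, Slc38a1, Slc38a2, Slc38a9 and Slc43a2. Each was matched by its Ensembl identifier to 1 row of a deposited table of 41592 genes, so 10 of 10 were found. Transcripts were measured by RNA-seq in YFP-positive CD4+ T cells taken from the spleens and lymph nodes of mice on C57BL/6, 6 to 8 weeks old, of the genotype Foxp3 dCNS1-Cre-R26-YFP. By that name, Cre is under Foxp3 regulatory DNA lacking the element CNS1, and a Rosa26 reporter turns on YFP for good once Cre has been active. One population was sorted as Thy1.1-YFP+ and the other as Thy1.1+YFP+, and both carry the same transgene and reporter. The stated aim was a comparison of Treg cells of thymic origin, which are suppressive CD4+ T cells, and precursors called exFoxp3, yet the submitters describe both by 1 and the same marker pair. The populations are therefore called Thy1.1-negative and Thy1.1-positive. The number of animals behind each library is not given in the sources used here, nor is what Thy1.1 staining reports.

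Each population had 1 library, so differences could not be checked against replicates and no p-value is given. The libraries held 18536339 counted reads for Thy1.1-negative and 18600581 for Thy1.1-positive cells. Levels are FPKM, reads normalised to gene length and library total. Ratios are Thy1.1-negative over Thy1.1-positive, with 95% intervals that cover counting error only. Both libraries carried T cell and Treg markers, with all 7 T cell and all 5 Treg markers above 1 FPKM. Foxp3, the transcription factor that defines the lineage, stood at 158 FPKM in Thy1.1-negative and 237 FPKM in Thy1.1-positive cells. Of the other Treg markers, Il2ra stood at 98.8 and 205 FPKM, a ratio of 0.482 (0.466 to 0.499). Ikzf2 had a ratio of 0.904 (0.884 to 0.924), and that of Nrp1, 0.989, included 1 (0.954 to 1.03). Only Ctla4 was higher in Thy1.1-negative cells, with a ratio of 1.05 (1.03 to 1.07). B cell markers were low, with 9 genes summing to 9.496 and 7.29 FPKM. In FPKM, 7 of the 9 were higher in Thy1.1-negative cells, but Ebf1 (18 and 18) and Fcer2a (4 and 4) had equal reads. Cd79b made up most of the sum, at 6.45 and 3.97 FPKM, a ratio of 1.62 (1.25 to 2.11), while Cd79a stood at 1.63 and 2.07 FPKM. Of the 9, only Cd79b had an interval that left out 1. Of the 8 myeloid markers, Cst3 made up 63.5 of 69.1 FPKM in Thy1.1-negative cells and 50.1 of 52.2 FPKM in Thy1.1-positive cells, while Lyz2 stood at 0.298 and 0.212 FPKM and Itgam at 4.17 and 0.272 FPKM. No B cell or myeloid marker was at 0 in either library. Itgam, Cd79b, Ebf1, Fcer2a, Cst3 and the Treg markers other than Foxp3 were named after their values were seen. All 12 cell cycle genes were higher in Thy1.1-negative cells, as were 55.1% of all genes averaging at least 1 FPKM. Of the 12, 8 were at least 2-fold higher on log2(FPKM + 1), against 1.93% of all those genes. Mki67, which encodes Ki-67, stood at 13.5 FPKM against 1.49 FPKM. Of the cell cycle genes Mcm2 differed least, with a ratio of 1.04 that included 1 (0.964 to 1.12). In bulk libraries, fewer cells of a type and less RNA per cell cannot be told apart. Whether the cell cycle difference plays a part in the transporter values was not tested.

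T cells take up large neutral amino acids such as leucine through LAT1, the product of Slc7a5, which reaches the membrane only when bound to the CD98 heavy chain encoded by Slc3a2. Glutamine enters through ASCT2 (Slc1a5) and through the sodium-coupled carriers of the Slc38 family, and arginine through the cationic carrier CAT1 (Slc7a1). Inside the cell, the lysosomal protein made from Slc38a9 reports arginine to the kinase complex mTORC1. Effector T cells raise several of these carriers after antigen stimulation, and loss of Slc7a5 or Slc1a5 is known to limit their expansion in mice.

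The order of the 10 genes by FPKM was the same in both libraries. Slc3a2 stood first, at 218 FPKM in Thy1.1-negative and 202 FPKM in Thy1.1-positive cells, and Slc1a5 second, at 198 and 183 FPKM. Slc38a2 followed at 125 and 117 FPKM, then Slc7a5 at 75.6 and 114 FPKM. These 4 genes lay above at least 87.6% of the 12820 genes tested, those whose FPKM averaged at least 1 over the libraries, in each library. In the middle were Slc7a1 at 57.4 and 67.04 FPKM, Slc43a2 at 52.2 and 60.9 FPKM and Slc38a1 at 39.2 and 32.4 FPKM. Slc7a6 reached 17.4 and 18.6 FPKM. Slc38a9, at 3.39 and 3.44 FPKM, and Slc1a4, at 1.12 and 0.910 FPKM, were the least abundant, and Slc1a4 passed the minimum of 1 FPKM on its mean alone. Neighbours in this order were apart by more than counting error, except for Slc38a2 and Slc7a5 in Thy1.1-positive cells, whose intervals of 115 to 120 and 110 to 118 FPKM overlapped.

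**Figure D1:**
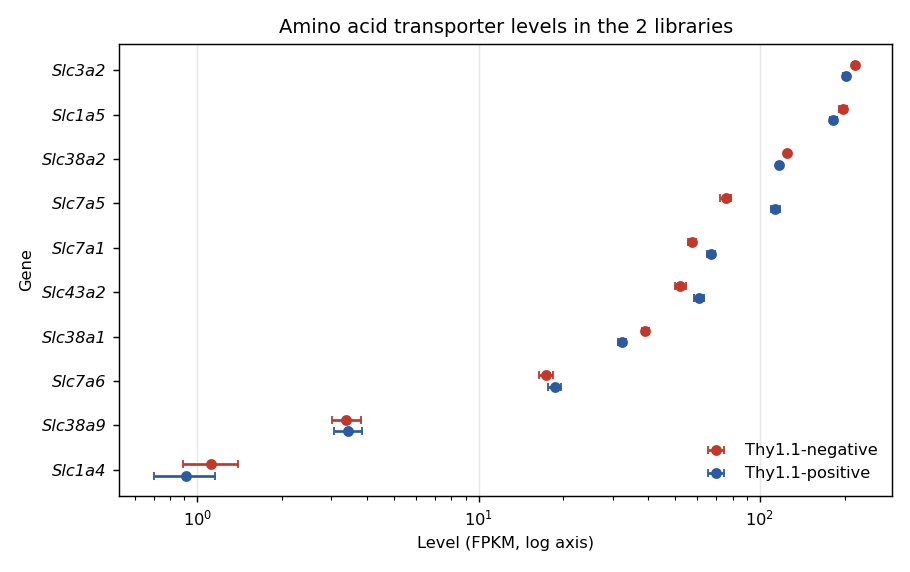
Level of each transporter in FPKM on a log axis, with the Thy1.1-negative library in red and the Thy1.1-positive library in blue. Bars are 95% counting intervals, hidden where narrower than a point; the order is the same in both libraries, and Slc7a5 shows the widest gap between them, at 75.6 against 114 FPKM.

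This order depends in part on the gene length the authors divided by. The length implied for Slc7a5 was 1436 bases, equal to the mean of its annotated transcripts, whereas its longest annotated coding transcript has 3517 bases. For Slc43a2 the lengths were 2200 and 7145 bases, for Slc7a1 3215 and 7179 bases, and for Slc1a5 1245 and 2764 bases. For Slc3a2, Slc38a2, Slc38a1, Slc7a6 and Slc1a4 the 2 lengths differed by less than 5%. Divided by the longest coding transcript, Slc3a2 stayed first at 209 and 193, on the FPKM scale. Slc38a2 then passed Slc1a5, at 124 and 116 against 89.0 and 82.3, and Slc7a5 came to 30.9 and 46.4, below Slc38a1 at 39.7 in Thy1.1-negative cells and above it, at 32.8, in Thy1.1-positive cells. Ratios of 1 gene between the libraries are the same under any length.

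**Figure D2:**
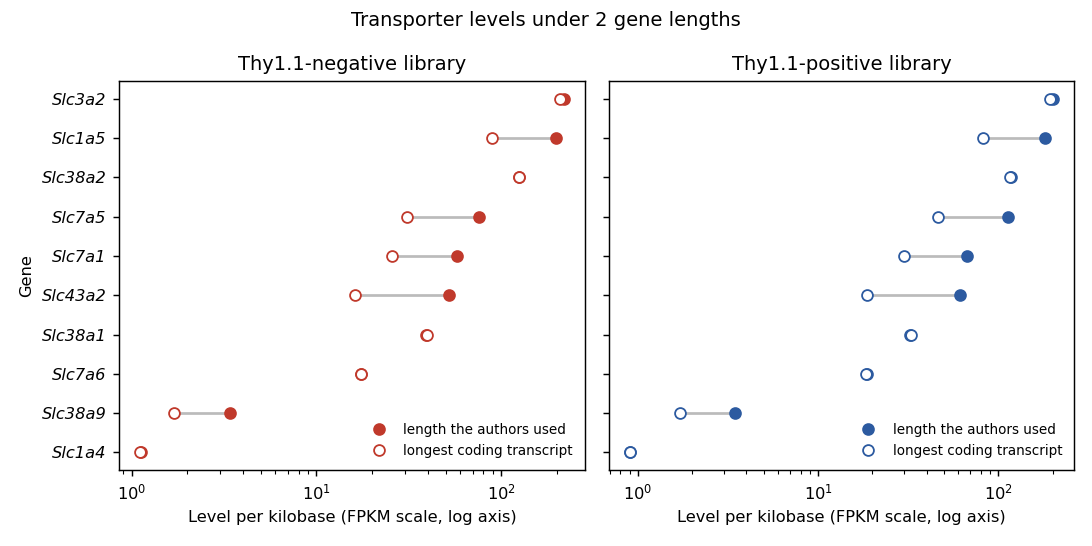
Level of each transporter on the FPKM scale (log axis) in each library, divided by the length the authors used (filled) or by the longest annotated coding transcript (open). Slc7a5, Slc1a5, Slc7a1, Slc38a9 and Slc43a2 move to lower levels and the other 5 hardly move.

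The 250 bases before the annotated start were read from RefSeq promoter sequences (GRCm38.p6) for 7 of the 10 genes; Slc1a5, Slc7a5 and Slc38a1 were not matched. Those of 4 genes are shown, because they are the most and second most abundant matched members (Slc3a2, Slc38a2), the member with AP-1 letters (Slc7a1), and the least abundant member (Slc1a4). All 4 are written 5′ to 3′ on the minus strand of the gene's chromosome. Capitals mark matches on either strand to the 6 motifs searched.
Slc3a2 (chr19:8713898-8714147): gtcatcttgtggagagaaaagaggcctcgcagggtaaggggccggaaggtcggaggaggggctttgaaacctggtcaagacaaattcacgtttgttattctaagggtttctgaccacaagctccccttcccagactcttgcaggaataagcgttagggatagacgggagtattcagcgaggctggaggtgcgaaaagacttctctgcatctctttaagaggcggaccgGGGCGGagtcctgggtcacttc
Slc38a2 (chr15:96699729-96699978): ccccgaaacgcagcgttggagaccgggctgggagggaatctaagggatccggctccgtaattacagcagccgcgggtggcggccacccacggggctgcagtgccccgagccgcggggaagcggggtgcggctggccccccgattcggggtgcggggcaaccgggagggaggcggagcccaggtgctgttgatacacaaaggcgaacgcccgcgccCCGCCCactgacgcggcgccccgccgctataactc
Slc7a1 (chr5:148399905-148400154): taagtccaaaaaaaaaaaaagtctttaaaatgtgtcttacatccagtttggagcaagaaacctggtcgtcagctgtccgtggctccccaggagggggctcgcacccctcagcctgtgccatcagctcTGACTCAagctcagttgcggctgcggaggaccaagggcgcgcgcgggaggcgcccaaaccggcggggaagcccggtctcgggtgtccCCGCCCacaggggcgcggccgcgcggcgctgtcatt
Slc1a4 (chr11:20332714-20332963): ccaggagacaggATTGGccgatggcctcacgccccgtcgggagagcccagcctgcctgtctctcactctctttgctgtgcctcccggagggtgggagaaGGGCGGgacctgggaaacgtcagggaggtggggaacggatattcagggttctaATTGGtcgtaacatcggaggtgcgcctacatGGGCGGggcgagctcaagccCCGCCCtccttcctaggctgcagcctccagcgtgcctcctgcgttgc

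The motifs were the core of the C/EBP-ATF response element (TGATGNAA), through which Atf4 acts when amino acids run short, the E-box (CACGTG), bound by Myc and Max, the AP-1 site (TGANTCA), the STAT site (TTCNNNGAA), the GC box (GGGCGG) and the CCAAT box (CCAAT). No 2 matches overlapped in the sequences shown. The 7 genes had 10 such windows, since some have several starts. GC boxes were in 8 of these 10 windows, against 32.7% of all 32851 windows. Slc1a4, the least abundant gene, held 3 GC boxes and 2 CCAAT boxes, while Slc3a2, the most abundant, held 1 GC box, 22 bases before the start. CCAAT boxes were in 3 of 10 windows, against 33.8% of all. AP-1 letters were in 1 window, that of Slc7a1, 123 bases before the start, against 6.75% of all windows. STAT letters were in 2, another start of Slc7a1 and that of Slc38a9, against 7.02%. Neither the C/EBP-ATF core nor the E-box was found in any of the 10, against 3.45% and 6.02% of all windows. These matches are letters in a short window and not sites of binding.

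Between the libraries the transporters went both ways. On the log2(FPKM + 1) scale, used for every count of genes past a fold, 0 of 10 were at least 2-fold higher in Thy1.1-negative cells, against 1.93% of all genes tested, and 0 were at least 2-fold lower, against 1.15%. With so few genes past 2-fold in the table, 0 of 10 is near the background and says nothing particular about the transporters. At 1.5-fold the counts were also 0 and 0, against 5.81% and 3.85% of all genes, but the count of lower genes rests on Slc7a5, which lay just short of that fold and passed it under other settings. The members split evenly, 5 above 0 and 5 below, with a median difference of 0.04, and the median over all genes was 0.03. Of all genes tested 55.1% lay above 0, the share to set beside the count of each list below. Their summed level was 787 FPKM in Thy1.1-negative and 799 FPKM in Thy1.1-positive cells. By counting error alone, 4 members had an interval above 1, where 27.4% of genes did, 3 had an interval below 1, where 19.2% did, and 3 had an interval that included 1. Such intervals narrow as reads grow, and the genes tested reach down to a mean of 1 FPKM. These counts therefore depend on read number and cannot be read as an excess of changed transporters. Rescaling the libraries by the upper quartile of values above 0 moved the median of all genes by 0.23. The quartiles were taken over unlike sets, 28107 genes above 0 in Thy1.1-negative and 25709 in Thy1.1-positive cells. This rescaling put 9 of the 10 members above 0, and also 10607 of the 12820 genes tested, so 9 of 10 is near the background. Where the direction of a member turns below, the median of all genes on that scale is therefore given too.

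**Figure D3:**
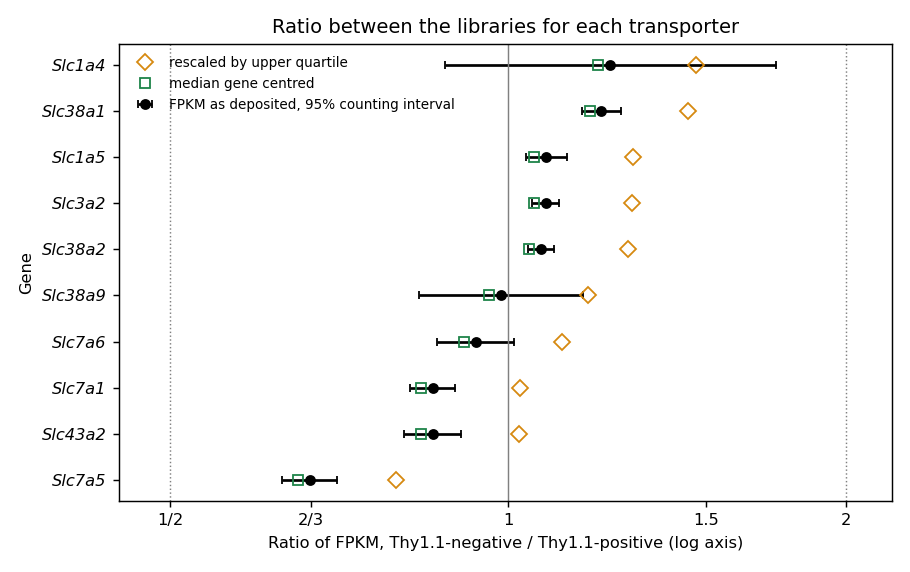
Ratio of FPKM between the libraries for each transporter on a log axis, as deposited (black, with 95% counting intervals), rescaled by the upper quartile (orange) or with the median gene centred (green). Slc7a5 lies below 1 under all 3, and dotted lines mark 2-fold.

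Slc7a5, the LAT1 light chain, had the lowest ratio of the 10. It stood at 75.6 FPKM from 2012 reads in Thy1.1-negative cells and at 114 FPKM from 3035 reads in Thy1.1-positive cells, a ratio of 0.665 (0.628 to 0.704). The Thy1.1-positive level was thus 1.503-fold the Thy1.1-negative level (1.42 to 1.59). On the log2(FPKM + 1) scale the difference was -0.58, just short of the 1.5-fold rule. It was past that rule with a pseudocount of 0.1, at -0.59, and under 3 of 4 rescalings. Only 3.89% of the 12820 genes had a lower difference, and 2.28% of those averaging at least 5 FPKM. Slc7a5 was the one member below 0 under every rescaling, at -0.33 by the upper quartile and -0.62 with the median gene centred or without the 100 highest genes.

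Its partner Slc3a2, the CD98 heavy chain, went the other way by a small amount. The heavy chain had 10878 reads against 10109, at 218 and 202 FPKM, a ratio of 1.08 (1.05 to 1.11). Within a library, a ratio of 2 genes does not depend on library scaling. For each FPKM of Slc3a2 there was 0.347 FPKM of Slc7a5 in Thy1.1-negative cells and 0.563 FPKM in Thy1.1-positive cells. The first of these ratios was 0.616 times the second (0.579 to 0.656). Slc7a6, the light chain y+LAT2 that exchanges cationic for neutral amino acids, had 17.4 and 18.6 FPKM, and its ratio of 0.935 included 1 (0.864 to 1.01). Its difference turned to 0.15 under upper-quartile rescaling, still below the median of all genes on that scale, 0.26. Slc7a5 relative to Slc7a6 stood at 4.34 in Thy1.1-negative against 6.097 in Thy1.1-positive cells, a factor of 0.711 (0.646 to 0.784). Because Slc7a5 had the lowest ratio of the members, its factor against any other member is below 1 by arithmetic. Such pairs give the size of the gap and are not separate evidence that Slc7a5 differs.

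Other light chains that pair with CD98 were scarce, with 1 exception. Slc7a7 (y+LAT1) stood at 1.23 and 1.03 FPKM, Slc7a8 (LAT2) at 0.134 and 0.0667 FPKM from 10 and 5 reads, and Slc7a11, the cystine carrier xCT, at 0.0435 and 0.0347 FPKM from 5 and 4 reads. Slc7a10 (Asc-1), a carrier of small neutral amino acids, was listed at 14.6 and 10.1 FPKM. Its exons overlap those of Lrp3 on the opposite strand, itself listed at only 0.815 and 0.371 FPKM. The library kit is not stated to keep strand, so the reads of Slc7a10 are uncertain. Summed over the 6 light chains, the level was 109 FPKM in Thy1.1-negative and 144 FPKM in Thy1.1-positive cells. Slc3a1, the other heavy chain of the family, was at 1.24 and 1.91 FPKM, a ratio of 0.649 (0.450 to 0.927). Bsg, which encodes basigin, a glycoprotein found in complexes with CD98, had a ratio of 1.08 (1.02 to 1.15), close to that of Slc3a2.

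Slc43a2 encodes LAT4, a carrier of large neutral amino acids that needs no heavy chain. It had 2128 reads against 2494, at 52.2 and 60.9 FPKM, a ratio of 0.856 (0.808 to 0.908). Slc7a5 relative to Slc43a2 had a factor of 0.777 (0.717 to 0.842), low by the same arithmetic. Summed over Slc7a5, Slc7a6 and Slc43a2, the level was 145 against 193 FPKM. The exons of Slc43a2 overlap an annotated antisense gene, Gm45606, so a share of its reads could come from that strand.

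Slc7a1, the arginine and lysine carrier CAT1, matched Slc43a2 in size of difference. It had 3422 reads against 4009, at 57.4 and 67.04 FPKM, a ratio of 0.857 (0.818 to 0.897). The direction of both genes turned after rescaling by the upper quartile, with differences of 0.033 for Slc7a1 and 0.032 for Slc43a2, while all genes had a median of 0.26 on that scale. Slc7a5 relative to Slc7a1 had a factor of 0.777 (0.722 to 0.835), which again follows from Slc7a5 having the lowest ratio of the members.

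**Figure D4:**
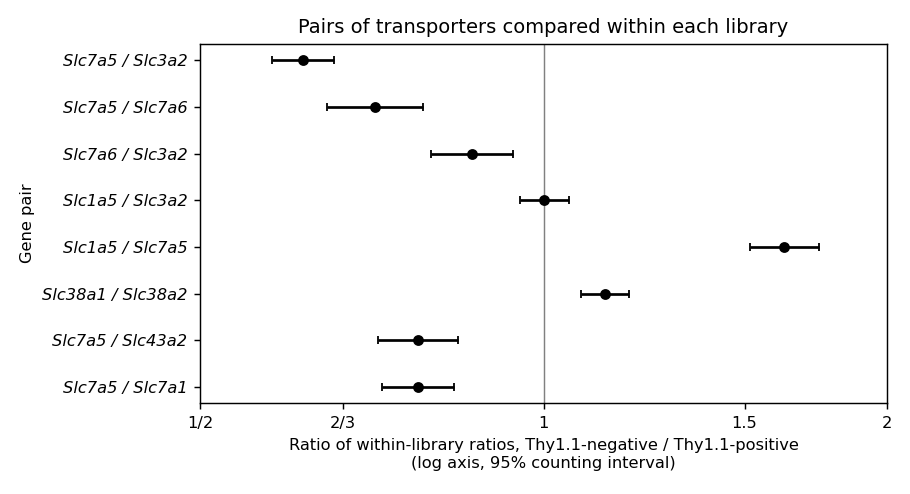
For pairs of transporters, the ratio of their levels within the Thy1.1-negative library divided by the same ratio within the Thy1.1-positive library (log axis, 95% counting intervals). Pairs with Slc7a5 on top lie at 0.616 to 0.777, Slc1a5 over Slc3a2 at 1.001, and Slc38a1 over Slc38a2 at 1.13. Slc7a5 had the lowest ratio of the members, so pairs with it on top are low by arithmetic.

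Slc1a5, the glutamine carrier ASCT2, ran level with Slc3a2. Slc1a5 had 4559 reads against 4231, at 198 and 183 FPKM, a ratio of 1.08 (1.04 to 1.13). For each FPKM of Slc3a2 there were 0.907 and 0.905 FPKM of Slc1a5, so the pair kept its proportion to within counting error, with a factor of 1.001 (0.953 to 1.05). Against Slc7a5, by contrast, Slc1a5 stood at 2.61 in Thy1.1-negative and 1.61 in Thy1.1-positive cells. Its relative Slc1a4, the alanine, serine and cysteine carrier ASCT1, rested on 81 and 66 reads, and its ratio of 1.23 included 1 (0.879 to 1.73).

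The sodium-coupled neutral carriers Slc38a1 (SNAT1) and Slc38a2 (SNAT2) were both higher in Thy1.1-negative cells. Slc38a1 had the highest ratio of those members whose interval left out 1. It had 5349 reads against 4433, at 39.2 and 32.4 FPKM, a ratio of 1.21 (1.16 to 1.26). Slc38a2, which amino acid shortage is known to raise, had 10745 reads against 10084, at 125 and 117 FPKM, a ratio of 1.07 (1.04 to 1.099). Slc38a1 therefore made up more of the pair in Thy1.1-negative cells, at 0.313 against 0.276 FPKM for each FPKM of Slc38a2, a factor of 1.13 (1.08 to 1.19). Summed, the pair stood at 165 and 150 FPKM.

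Slc38a9, the lysosomal arginine sensor, was nearly level, at 3.39 FPKM from 280 reads and 3.44 FPKM from 285 reads, a ratio of 0.986 (0.833 to 1.17). Its difference of -0.02 turned to 0.19 under upper-quartile rescaling, still below the median of all genes on that scale, 0.26. An annotated antisense gene, Gm47827, overlaps the exons of Slc38a9. Among 35 measured genes that carry amino acid signals to mTORC1, 21 lay above 0 and 14 below, none past 2-fold, with a median of 0.02. The Lamtor genes, which encode the Ragulator scaffold that Slc38a9 binds on the lysosome, were all higher in Thy1.1-negative cells, from Lamtor1 at 1.17 (1.05 to 1.297) to Lamtor4 at 1.46 (1.25 to 1.701). The other Lamtor genes were singled out after their values were seen. Of their partners, the 4 Rag GTPases, 3 lay above 0 and Rragd below. Rraga had a ratio of 1.26 (1.13 to 1.41) and Rragb one of 1.27 that included 1 (0.957 to 1.701), both named after their values were seen. Rragc was at 39.4 against 27.9 FPKM, a ratio of 1.41 (1.29 to 1.56), while Rragd, which can take the place of Rragc in the dimer, was at 7.63 against 14.6 FPKM, a ratio of 0.524 (0.470 to 0.583). Fnip2, a partner of folliculin, stood at 0.775 against 1.501 FPKM, a ratio of 0.516 (0.364 to 0.726). On the log2(FPKM + 1) scale Rragd had the lowest difference of the list, at -0.85, and Fnip2 stood at -0.49.

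Other amino acid transporters were mostly low. Of 48 listed, 18 had a mean of at least 1 FPKM, and of these 13 lay above 0 and 5 below, none past 2-fold on the log2(FPKM + 1) scale, with a median of 0.19. With a pseudocount of 0.1, 2 were past 2-fold, but the share of all genes past it at that pseudocount was not counted. Slc38a6, an Slc38 relative whose substrates are less well known, had the highest level of the list, at 346 and 296 FPKM. With the lengths the authors used, it stood above every one of the 10 members. That rank depends on its length of 1649 bases, and its level under the longest coding transcript was not computed. In reads it had 10564 and 9074, fewer than Slc3a2 with 10878 and 10109. Slc38a10 followed at 97.8 and 109 FPKM, then the peptide carrier Slc15a2 at 44.3 and 44.7 FPKM, the taurine carrier Slc6a6 at 20.4 and 23.5 FPKM and the proton-coupled lysosomal carrier Slc36a1 at 18.3 and 13.6 FPKM. The highest difference was 0.92 for Slc43a3, at 13.9 against 6.91 FPKM, a ratio of 2.02 (1.66 to 2.47). Slc43a3 is related to Slc43a2 by name but is known to carry purine nucleobases. Slc16a10, a carrier of aromatic amino acids, had a ratio of 2.55 (1.89 to 3.47) at only 1.60 against 0.628 FPKM.

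**Figure D5:**
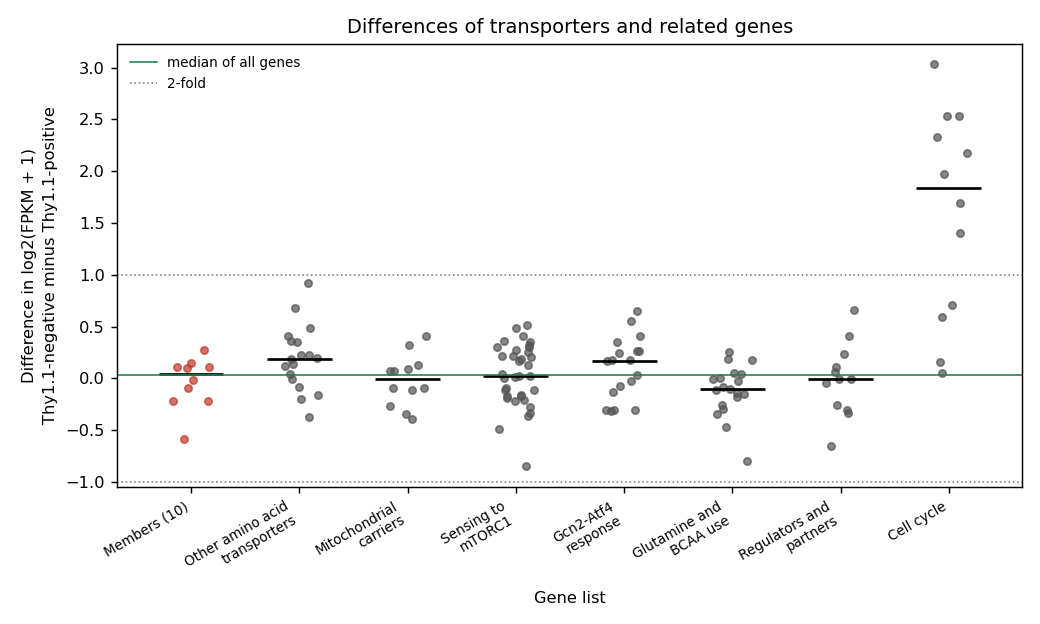
Difference in log2(FPKM + 1), Thy1.1-negative minus Thy1.1-positive, for each gene with a mean of at least 1 FPKM in 8 lists; points are genes, black bars medians, the green line the median of all genes and dotted lines 2-fold. The 10 transporters (red) lie between -0.58 and 0.27, and 8 of 12 cell cycle genes lie above 1.

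Genes that use the imported amino acids were mostly lower in Thy1.1-negative cells as deposited. Of 19 genes of glutamine and branched-chain amino acid use, 6 lay above 0 and 13 below, where 55.1% of all genes lay above 0, with a median of -0.10 for the list. Under upper-quartile rescaling, 14 of the 19 lay above 0, as did 10607 of the 12820 genes tested. The median of the list was then 0.15, while the median of all genes was 0.26. Bcat1, the cytosolic transaminase that starts leucine breakdown, was at 4.34 against 8.31 FPKM, a ratio of 0.522 (0.424 to 0.640). Bckdhb, a subunit of the branched-chain ketoacid dehydrogenase, had a ratio of 0.698 (0.557 to 0.872), and Glul, glutamine synthetase, 0.784 (0.742 to 0.828). Glud1, glutamate dehydrogenase, was highest at 1.19 (1.14 to 1.24).

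Carriers of the inner mitochondrial membrane were divided, with 6 of 12 above 0 and 6 below and a median of -0.01. Slc25a12, an aspartate and glutamate carrier, had a ratio of 1.34 (1.22 to 1.47) and Sfxn1, a serine carrier, 1.28 (1.13 to 1.44). Slc25a29, a carrier of basic amino acids, had a ratio of 0.728 (0.553 to 0.955) and Sfxn2 0.731 (0.544 to 0.978). None passed 2-fold.

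Genes of the response to amino acid shortage showed no common shift past 2-fold. Atf4, the factor that drives it, was level: 221 and 225 FPKM gave a ratio of 0.982 (0.950 to 1.02). Of 18 measured genes 11 lay above 0 and 7 below, with a median of 0.17. Psat1, an enzyme of serine synthesis, had the highest difference, at 38.4 against 24.1 FPKM, a ratio of 1.596 (1.43 to 1.78). Ddit4, an inhibitor of mTORC1, followed at 1.48 (1.38 to 1.596) and Atf5 at 1.497 (1.08 to 2.09), whereas Shmt2, the mitochondrial serine hydroxymethyltransferase, had a ratio of 0.797 (0.728 to 0.872).

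Regulators of the transporters did not point one way. Myc, which raises Slc7a5 and Slc1a5 in activated T cells, was at 26.1 against 41.8 FPKM, a ratio of 0.625 (0.573 to 0.681), and Mxi1, which competes with it for Max, had a ratio of 0.788 (0.745 to 0.834). Malt1, a protease of antigen receptor signalling tied to ASCT2 uptake, was higher at 1.59 (1.53 to 1.65), and Hif1a, the oxygen-regulated factor, at 1.33 (1.29 to 1.38). Of the 12 genes 5 lay above 0 and 7 below, none past 2-fold, and their median was -0.01. Among 12 housekeeping genes, 8 lay above 0 with a median of 0.10, and Actb had the highest difference, at 0.62, larger in size than that of Slc7a5.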

How the data were processed

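Sorted cells were typically over 97% pure, and a NEBNext Ultra kit with 3 µg of RNA gave each library, as the labels' protocols state. The authors deposited a table with 1 FPKM column per library, whose names carry P or N, taken here to mean positive or negative for Thy1.1. Bowtie2 2.2.3, TopHat2 2.0.12, HTSeq 0.6.1 and mm9 are listed in the submitters' processing notes, and their settings were not given in the sources used here. GENCODE M21, on another build, gave symbols for 96.8% of IDs, so gene positions are not reported.

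Whole reads were recovered from the FPKM values, since ratios of the 23442 genes above 0 in both libraries were ratios of whole numbers times 1 factor. Library totals came from genes with 1 annotated transcript. For each gene, its smallest whole numbers were multiplied to reach a whole length (within 0.01 bases) nearest its mean annotated transcript length, a rule set after seeing the values. The sums of these reads came to 100.2% and 100.05% of the totals. Intervals are exact Clopper-Pearson for ratios between libraries, large-sample log odds ratio for pairs and exact Poisson for levels. With 1 library per group no count test was run. Scripts (Python 3.11.15, scipy 1.17.1, pandas 2.3.3) were tested on simulated data.

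Counts cover genes averaging at least 1 FPKM. Members, lists and the naming rule (all members, the extreme genes of each list and up to 2 more, the 5 highest other transporters, and set partners, regulators and markers) were chosen with earlier results of these data known. A few genes under this rule are left unreported. Alternatives were pseudocounts of 0.1 and 5, other minimum levels, fold rules of 1.5 and 4, and 4 rescalings.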

Additional observations from a re-analysis of the deposited data

How the results depend on the processing

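With 1 library per population, nothing here shows how far the values would vary between animals, sorts or library preparations, and no paired analysis was possible because each group has 1 library. Over the members, 0 genes passed 2-fold in either direction under every pseudocount, filter and rescaling tried. At 1.5-fold the 0 depends on the setting, since Slc7a5 is past it with a pseudocount of 0.1 (-0.59), at the same sum (-0.59), with the median gene centred (-0.62) and without the 100 highest genes (-0.62). Their median difference of 0.04 moved to 0.24 under upper-quartile rescaling, and stayed within 0.1 of it under the other alternatives. That rescaling turned the sign of Slc7a1 (0.033), Slc7a6 (0.15), Slc38a9 (0.19) and Slc43a2 (0.032), and of the medians of mitochondrial carriers (0.20), glutamine and branched-chain amino acid use (0.15) and transporter regulators (0.23), and it moved the median gene by 0.23. The median of mTORC1 sensing genes was -0.011 with the median gene centred and -0.012 without the 100 highest genes. Among genes averaging 5 FPKM or more, the medians were 0.072 for mitochondrial carriers and 0.028 for regulators. The count of genes past the fold rule changed in 5 lists. Other amino acid transporters had 2 higher with a pseudocount of 0.1, 1 by the upper quartile and 2 at 1.5-fold, against 0. For all genes, shares past a fold were counted only on the log2(FPKM + 1) scale without rescaling. At 1.5-fold these shares were 5.81% higher and 3.85% lower. At 1.5-fold there was 1 lower in mTORC1 sensing, 1 higher in the Atf4 response, 1 lower in amino acid use, and 1 higher and 1 lower among regulators, all against 0. With the smallest whole numbers, intervals widened for Slc1a4 (0.675 to 2.27), Slc38a9 (0.670 to 1.45) and Slc43a2 (0.788 to 0.930). The level of Slc3a2 over that of Slc7a5 was 2.88 and 1.78 with the authors' lengths, and 6.76 and 4.16 with the longest coding transcripts, an alternative chosen after seeing the data.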
